A study of Homo sapiens with 6 samples.

Results

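miR-191 and miR-425 are a pair of miRNAs encoded side by side within the gene DALRD3, and each precursor gives a 5p and a 3p arm. The 4 arms, hsa-miR-191-5p, hsa-miR-191-3p, hsa-miR-425-5p and hsa-miR-425-3p, were taken by their probe names out of 2565 miRNA probes on the array, and each has a single spot. The pair was chosen by its measured difference between the groups in an earlier account of the same arrays, in which miR-425-5p was among the largest rises with 1 background correction and lower with another. The differences between the groups are therefore given as a description, without p-values for the 4 arms, and support nothing beyond themselves.

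The arrays came from Panc-1, an established cell line from a human pancreatic ductal adenocarcinoma, grown in medium with fetal bovine serum. In the control group (3 arrays) the cells received no TGF-β (0 ng/mL), and in the TGF-β group (3 arrays) they were kept with TGF-β at 10 ng/mL for 72 h to induce epithelial–mesenchymal transition. Total RNA was labelled with Cy5 and read in 1 colour. Both groups are the same single cell line, and the labels do not say that the replicates were separate cultures, so the spread between arrays may be technical. The control arrays shared 1 slide and the arrays after TGF-β shared a second slide, so slide and treatment cannot be told apart.

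A miRNA precursor is a hairpin cut from a longer transcript. Its 2 arms are released as a short duplex, 1 of which is usually kept in the silencing complex, where bases 2 to 8 (the seed) find target RNAs. miR-191 and miR-425 lie in the same orientation as DALRD3 and are thought to be transcribed with it. miR-191-5p is abundant in many epithelial cells and has been used as a reference miRNA in quantitative PCR, and both miRNAs have been studied as growth-promoting miRNAs in carcinomas.

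In the RefSeq annotation of GRCh38.p14, DALRD3 covers chromosome 3 from 49015488 to 49021505 on the minus strand. MIR191 lies from 49020618 to 49020709 and MIR425 from 49020148 to 49020234, both on the minus strand, with 383 bases between them. Their ends nearest the start of DALRD3 are 796 and 1271 bases from it. NDUFAF3, a gene on the plus strand from 49020452 to 49023495, overlaps MIR191 but not MIR425. Exon positions were not used here, so the intron was not checked, and the array files give no coordinates.

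Sequences were taken from RefSeq for 3 of the 4 arms. They are shown because the seed defines which RNAs an arm can pair with, and the seed is in capitals.
miR-191-5p: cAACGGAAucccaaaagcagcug
miR-191-3p: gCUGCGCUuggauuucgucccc
miR-425-3p: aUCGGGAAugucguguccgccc
The seeds differ among the 3 arms, and 0 other miRNAs in the RefSeq table carried any of them. The longest run shared by 2 of these arms was 4 or 5 bases. The longest run that an arm shared with another miRNA on the array was 9 bases for miR-191-5p (with miR-646), 9 for miR-191-3p (with miR-1247-5p) and 8 for miR-425-3p (with miR-4681), among the 2253 array miRNAs that had a RefSeq sequence. These are properties of the mature sequences, and the probe sequences were not used here.

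The precursors show how the arms sit in the hairpins. In MIR191 the capitals mark miR-191-5p (bases 16 to 38) and miR-191-3p (bases 58 to 79), and in MIR425 they mark miR-425-3p (bases 55 to 76).
MIR191: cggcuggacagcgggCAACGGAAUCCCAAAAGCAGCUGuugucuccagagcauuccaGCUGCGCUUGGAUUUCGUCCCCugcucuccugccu
MIR425: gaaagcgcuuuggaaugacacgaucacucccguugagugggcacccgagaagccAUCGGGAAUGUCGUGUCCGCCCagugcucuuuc
The arrays measured the mature arms, each with a probe of its own. Neither the hairpins nor DALRD3 itself was measured.

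All 4 arms were detected on all 6 arrays, where detection means a signal above the mean of the blank spots by 2 SDs. Blank spots carry no probe and gave means of 18.2 to 21.3 intensity units. The spots of the arms lay 17.9 to 3479 SDs above that mean. Of the markers of pancreatic carcinoma cells, such as miR-21-5p, 6 of 6 were detected on all arrays. Of 3 markers of acinar and islet cells none was, and of 6 markers of blood cells 2 were, with signals of at most 22.8 and 31.3 units.

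miR-191-5p, the arm usually kept, gave signals of 1940, 2051 and 2463 intensity units among controls and 1611, 1856 and 2010 after TGF-β. Before any correction the groups overlapped, since TGF-β replicate 3 was above control replicate 1. The blank spots amounted to 0.00865 to 0.0121 of this signal. The local background, the scanner's reading around the spot, was 1744, 1268 and 2527 units in controls and 1189, 643 and 1381 after TGF-β. It was thus between 0.346 and 1.03 of the signal, and on control replicate 3 the signal minus the local background was -64.0 units.

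miR-425-5p, also the arm usually kept, showed the same contrast between the backgrounds. Its signals were 1518, 1703 and 2027 units in controls and 1183, 1548 and 1545 after TGF-β, with overlapping groups. Its local background was 1534, 1181 and 1594 units in controls and 637, 456 and 942 after TGF-β. Every TGF-β array was below every control array in the local background, which is the quantity subtracted, while the signals overlapped. The local background was apart in this direction for 3.36% of the 1457 miRNAs detected throughout at least 1 group, and for 4.72% of 127 spots above 200 units on all arrays. On control replicate 1 the signal minus the local background was -16.4 units. As a share of the signal the local background was 0.830 in controls (SD 0.163, n = 3) and 0.481 (SD 0.165, n = 3) after TGF-β.

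The 3p arms were dim. miR-191-3p gave 30.9, 34.8 and 40.5 units in controls and 31.2, 33.1 and 34.6 after TGF-β, with a local background of 28.8, 20.3 and 29.9 and of 25.7, 22.4 and 22.8 units. Both its signals and its local background overlapped between the groups. miR-425-3p gave 55.3, 58.8 and 66.0 units in controls and 52.2, 58.0 and 56.4 after TGF-β, with a local background of 56.7, 50.1 and 64.0 and of 45.1, 36.6 and 46.9 units. Its signals overlapped, its local background was lower on every TGF-β array, and on control replicate 1 the signal minus the local background was -1.36 units. In all, the local background was above the signal on 3 of the 24 spots of the 4 arms, all in controls. The local background was apart with TGF-β lower for 2 of the 4 arms, miR-425-5p and miR-425-3p, compared with 3.36% of the 1457 miRNAs. Since the arms were chosen with the comparison known, nothing is read from this count.

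**Figure D1:**
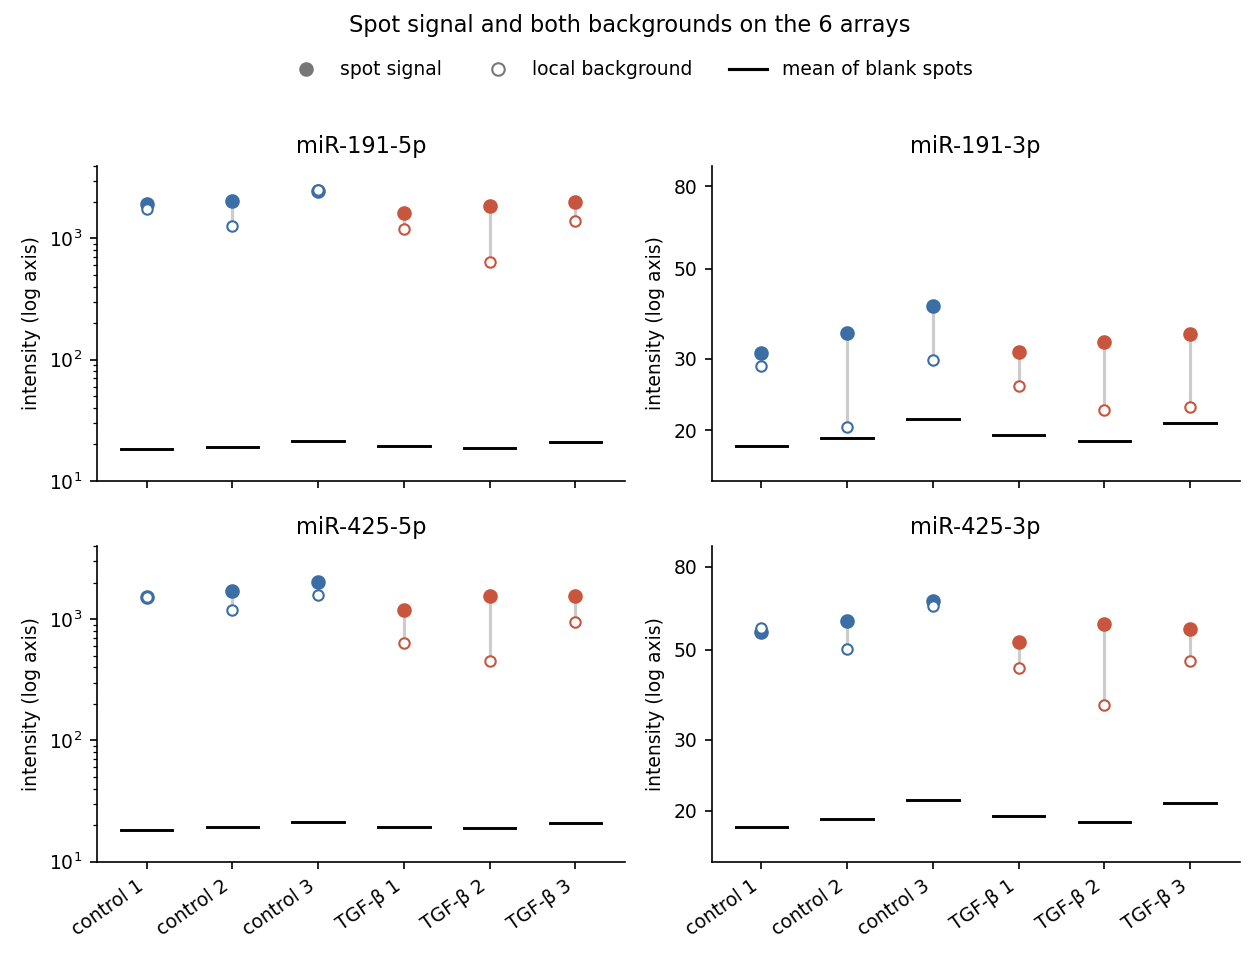
Spot signal (filled), local background (open) and mean of the blank spots (line) of each arm on the 3 control (blue) and 3 TGF-β arrays (red), in intensity units on log axes whose ranges differ between 5p and 3p arms. The local background of the 5p arms lies between 456 and 2527 units, at 0.294 to 1.03 of the signal, while the blank spots lie at 18.2 to 21.3 units.

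The spots next to the bright arms were read for comparison with this local background. miR-425-5p has 8 adjacent spots, 4 of which had signals under 30 units on every array. Their local background was 12.6 to 19.5 units, compared with 456 to 1594 units around miR-425-5p itself. miR-191-5p has 5 adjacent spots, of which 2 or 3 per array had signals under 30 units and a local background of 13.1 to 21.3 units, compared with 643 to 2527 units around miR-191-5p. The high local background was thus seen at the bright spot and not at the dim spots next to it. Adjacent spots that were not dim had local backgrounds of up to 358 units for miR-191-5p and 310 units for miR-425-5p, on control replicate 3. Adjacent signals there reached 384 and 320 units. The dim neighbours of miR-425-3p had 11.8 to 21.2 units, compared with 36.6 to 64.0 at its own spot. For miR-191-3p the excess was small: its own local background was above that of every dim neighbour on 6 of 6 arrays, by 0.700 to 5.61 units.

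**Figure D2:**
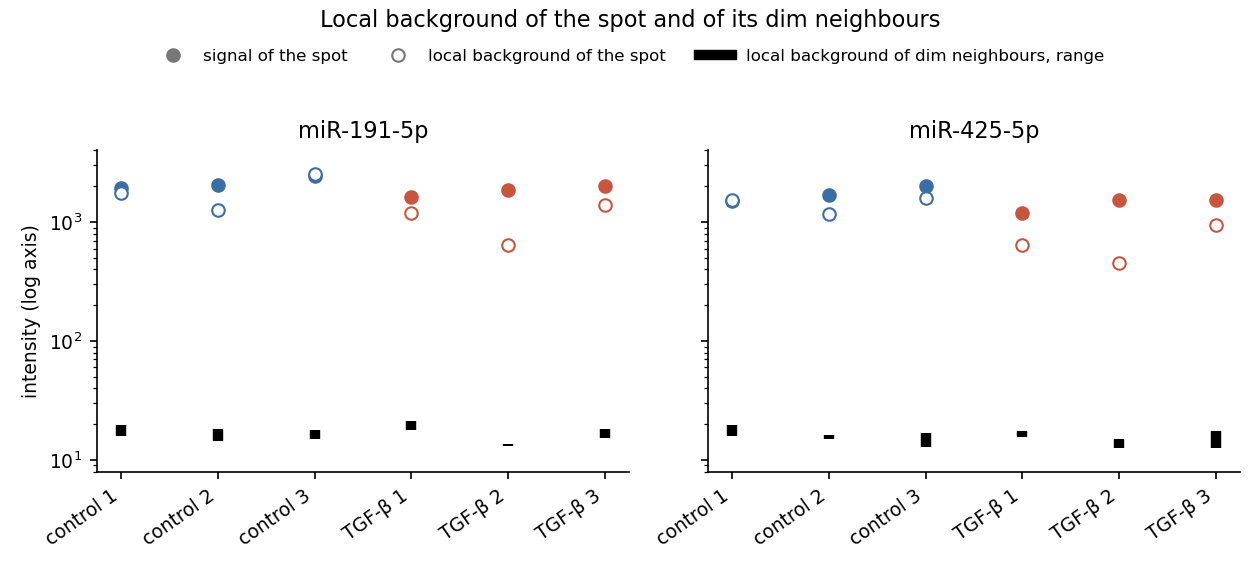
Signal (filled) and local background (open) of the spots of miR-191-5p and miR-425-5p, with the range of the local background of adjacent spots whose own signal was under 30 units (black bars), in intensity units on a log axis for each array. The dim neighbours stay between 12.6 and 21.3 units on all 6 arrays.

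Other bright spots were read in the same way. Among the 131 to 155 miRNA spots per array with a signal above 200 units, the local background exceeded the signal on 45.8% in control replicate 1, 0.685% in control replicate 2 and 9.68% in control replicate 3, and on 10.9%, 2.67% and 4.70% in TGF-β replicates 1, 2 and 3. The ratio of local background to signal at miR-425-5p stood above that of 64.1%, 82.9% and 61.9% of these spots among controls and above 8.70%, 14% and 53.0% after TGF-β. For miR-191-5p the shares were 25.2%, 74.7% and 92.3% among controls and 28.3%, 28.0% and 64.4% after TGF-β. The place of the arms among bright spots therefore varied from array to array within a group. For miR-425-5p it was higher on every control array than on every TGF-β array, by a narrow margin (61.9% compared with 53.0%). The share of bright spots whose place was apart in this way was not computed, so nothing is read from this separation.

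With the blank-spot background, limma called miR-191-5p and miR-425-5p lower after TGF-β, as it did 1.37% of the 1457 miRNAs, and neither of the 3p arms, whose differences were also below 0. These calls and the separation of the groups were lost with median scaling or no normalization. Each signal had the blank-spot mean taken off, the values were put on the log2 scale and the arrays were then quantile normalized. For miR-191-5p this gave normalized log2 values of 11.13, 11.09 and 11.04 in controls and 10.76, 10.64 and 10.85 after TGF-β. The lowest control value was above the highest value after TGF-β. The difference, TGF-β minus control, was -0.34 on the log2 scale (standard error 0.062, n = 3 per group), a ratio of 0.791. Standard errors of differences are those of limma throughout, which moderates the spread of each miRNA with that of miRNAs of similar intensity.

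miR-425-5p had normalized log2 values of 10.76, 10.81 and 10.71 in controls and 10.43, 10.48 and 10.54 after TGF-β. Here too the groups did not overlap. The difference was -0.27 (standard error 0.055), a ratio of 0.828. Compared with miR-191-5p, its change was of similar size given the standard errors, although the difference between the changes was not tested.

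The 3p arms, usually the less used arms of these hairpins, had differences below 0 with larger limma standard errors, and limma called neither. Their own SDs within groups were 0.11 for miR-191-3p and 0.078 for miR-425-3p. Those of the 5p arms were 0.082 for miR-191-5p and 0.052 for miR-425-5p, so the larger error of miR-425-3p was not matched by its own spread. miR-191-3p had normalized log2 values of 3.78, 4.05 and 4.0 in controls and 3.66, 3.75 and 3.72 after TGF-β, a difference of -0.24 (standard error 0.13) and a ratio of 0.850. Its groups were apart by a narrow margin, between control replicate 1 and TGF-β replicate 2. miR-425-3p had 5.35, 5.41 and 5.25 in controls and 5.18, 5.16 and 5.04 after TGF-β, a difference of -0.21 (standard error 0.099) and a ratio of 0.867. Its groups did not overlap either. The size of the 3p differences depended on the background step: without correction they were -0.10 and -0.13, and with normexp on the blank-spot mean -0.051 and -0.086, whereas the 5p arms then stayed at -0.33 for miR-191-5p and at -0.27 and -0.26 for miR-425-5p.

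Over the 1457 miRNAs tested, the median difference with the blank-spot background was -0.013 and the median standard error was 0.18. The groups were apart with TGF-β lower for 4 of 4 arms and for 10.1% of all these miRNAs. In limma with Benjamini-Hochberg adjustment over the 1457 miRNAs, 2 of the 4 arms, miR-191-5p and miR-425-5p, were lower at an adjusted p under 0.05, compared with 1.37% of all these miRNAs lower and 3.98% in either direction. Nothing is read from these counts, since the arms were chosen with this comparison known. The calls of both arms were lost when arrays were scaled by the median or the 75th percentile or were not normalized, when dim probes were not filtered, when limma was run without its trend or the methods' t-test was used, and when control replicate 2, TGF-β replicate 1 or TGF-β replicate 2 was left out. With median scaling or without normalization, 0 of the 4 arms had groups apart, although all 4 stayed below 0. Median scaling gave -0.11 (standard error 0.19) for miR-191-5p, -0.11 for miR-191-3p, -0.17 for miR-425-5p and -0.049 for miR-425-3p. The median of all miRNAs was then 0.12, and relative to it the arms were at -0.23, -0.23, -0.29 and -0.17.

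With the local background, limma called none of the 4 arms, and the 5p arms had differences above 0 with standard errors of over 1 on the log2 scale. The signal and local background of each spot were corrected with the normexp method (offset 50) before quantile normalization. The normalized log2 values of miR-425-5p were then 6.17, 8.42 and 8.78 in controls and 9.75, 9.21 and 8.90 after TGF-β. The groups were apart, as they were with TGF-β higher for 3.91% of all 1457 miRNAs. The difference was 1.5 (standard error 1.33), a ratio of 2.83, and within same-numbered arrays it was 3.59, 0.79 and 0.12. The lowest control value was that of replicate 1, where the local background exceeded the signal, and without that array the difference was 0.74.

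For miR-191-5p, the values with the local background were 9.87, 8.75 and 5.99 in controls and 9.47, 9.39 and 8.97 after TGF-β. The groups overlapped, and control replicate 1 was the highest of all 6 arrays. The difference was 1.07 (standard error 1.61), and within same-numbered arrays it was -0.41, 0.65 and 2.98. The lowest value was that of control replicate 3, again the array where the local background exceeded the signal, and without it the difference was -0.032. The sign of the change of miR-191-5p with the local background thus rested on 1 array.

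For the 3p arms the local differences were small on a scale where the offset of 50 units exceeds their signals minus local background. miR-191-3p had values of 6.25, 6.33 and 6.25 in controls and 6.29, 6.27 and 6.27 after TGF-β, a difference of 0.0024 (standard error 0.029). miR-425-3p had 6.2, 6.27 and 6.14 in controls and 6.33, 6.36 and 6.24 after TGF-β, a difference of 0.11 (standard error 0.044). The groups overlapped for both when taken as unpaired. Same-numbered arrays deviated together with this background. Within these pairs miR-425-3p was higher after TGF-β in 3 of 3, by 0.13, 0.092 and 0.099. Its standard error was 0.020 when the replicate number was a block. miR-191-3p was higher in 2 of 3 pairs. The share of all miRNAs that were higher in 3 of 3 pairs was not computed, so nothing is read from these counts. The size for miR-425-3p depended on the offset: it was 0.32 with an offset of 0 and 1.47 with plain subtraction. limma called 0% of all 1457 miRNAs with this background at an adjusted p under 0.05, and 2.33% had an unadjusted p under 0.05.

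**Figure D3:**
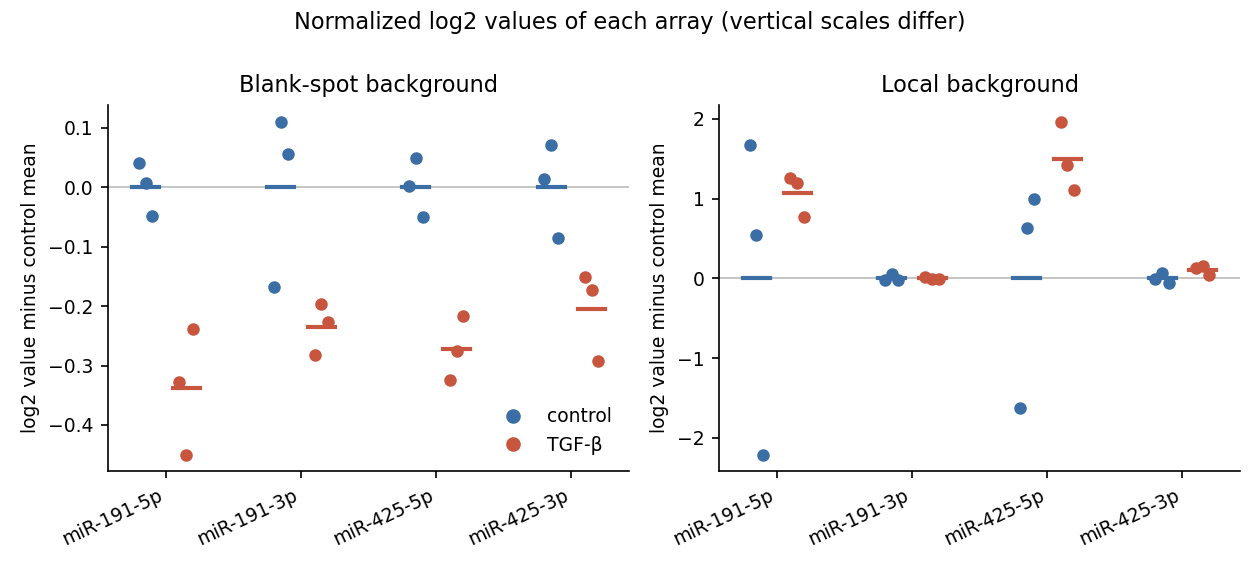
Normalized log2 values of each arm on the 3 control (blue) and 3 TGF-β arrays (red), minus the control mean of that arm, with group means as bars, for the blank-spot background (left) and the local background (right, on a wider vertical scale). With the blank-spot background every TGF-β array is below every control array, and with the local background the control arrays of the 5p arms spread over more than the difference between the groups.

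The spread within the groups also differed between the backgrounds, in opposite directions for the 5p and 3p arms. The SD of miR-191-5p over the 3 control arrays was 0.045 when corrected by blank spots and 2.00 when corrected locally, and after TGF-β it was 0.11 and 0.27. For miR-425-5p these SDs were 0.050 and 1.42 in controls, and 0.054 and 0.43 after TGF-β. The larger spread of the 5p arms with local correction was thus mostly in the control group. For the 3p arms the local SDs were the smaller ones, on the scale compressed by the offset: in controls 0.15 and 0.044 for miR-191-3p, and 0.079 and 0.063 for miR-425-3p. Over the 6 arrays the values of miR-191-5p and miR-425-5p had a Pearson correlation of 0.941 when corrected by blank spots and -0.223 when corrected locally. These 6 points fall on 2 slides that are also the 2 groups, and the value is a description. Over the 6 pairs that the 4 arms form, the correlations ran from 0.663 to 0.941 with blank spots and from -0.223 to 0.641 with local correction. The arms of 1 precursor did not stand apart in these ranges, with 0.663 (blank spots) and 0.273 (local) for miR-191 and 0.812 and 0.519 for miR-425.

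The authors' processed values, which also start from the blank spots, gave a smaller change. miR-191-5p had 7921, 8763 and 8228 units in controls and 6627, 8785 and 7795 after TGF-β, with means of 8304 ± 426 and 7736 ± 1080 (SD, n = 3) and a ratio of means of 0.932. miR-425-5p had 6181, 7262 and 6759 units and 4845, 7310 and 5973, with means of 6734 ± 541 and 6043 ± 1234 (SD, n = 3) and a ratio of 0.897. In both arms TGF-β replicate 2 was the highest array and TGF-β replicate 1 the lowest, so that the groups overlapped. TGF-β replicate 2 was multiplied by the largest factor of the 6 arrays, 4.78 compared with 3.37 to 4.31 for the other arrays. miR-191-3p ran from 49 to 68 units with a ratio of 0.929, and miR-425-3p from 136 to 187 units with a ratio of 0.973, both with overlapping groups.

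**Figure D4:**
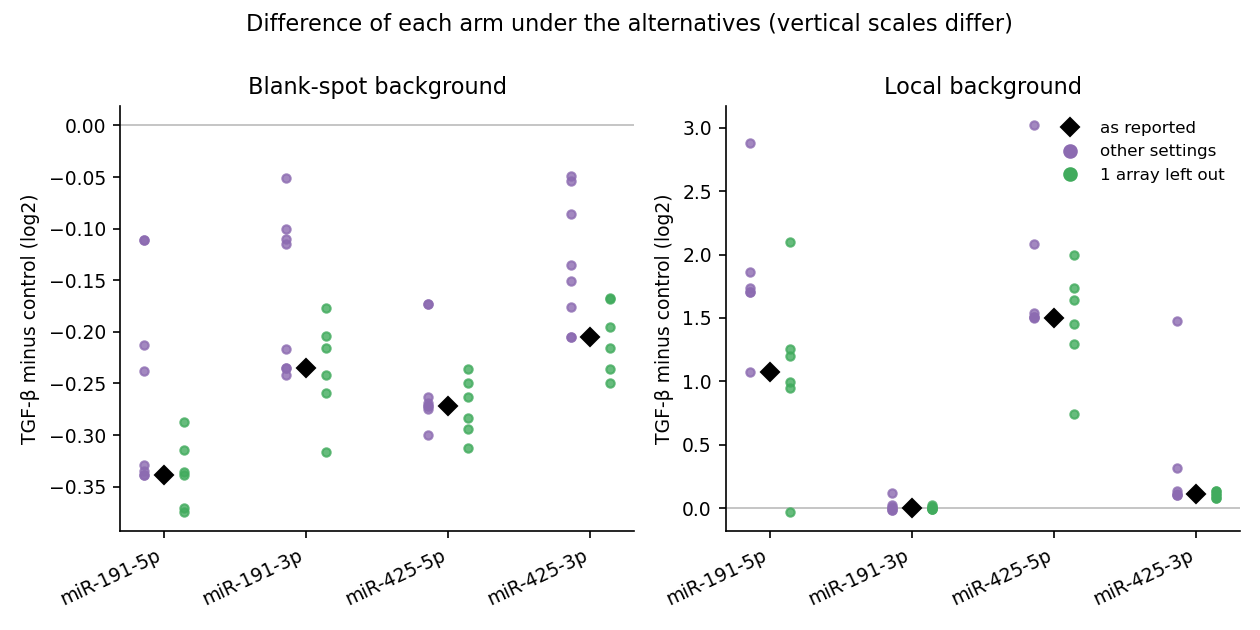
Difference between TGF-β and control on the log2 scale for each arm, as reported (black), under other settings of background and scaling (purple) and with 1 array left out (green), for the blank-spot background (left) and the local background (right, on a wider scale). With the blank-spot background all values of the 4 arms lie below 0, and with the local background miR-191-5p spans -0.032 to 2.88.

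Since miR-191-5p has served as a reference miRNA, 12 other miRNAs used for that purpose were read beside it. With the blank-spot background, 3 of the 12 fell and 0 rose at an adjusted p under 0.05 in limma, compared with 1.37% of all 1457 miRNAs that fell, and their median difference was -0.13, compared with -0.013 over all 1457 miRNAs. Those that fell were miR-484 (-0.35, standard error 0.085, adjusted p = 0.0463 from limma), miR-16-5p (-0.30, standard error 0.058, adjusted p = 0.0117) and miR-26a-5p (-0.23, standard error 0.055, adjusted p = 0.0491). miR-103a-3p, at 0.0018 (standard error 0.059), and miR-186-5p, at -0.0052 (standard error 0.083), did not pass the test. The list ranged from -0.35 to 0.10, and the 5p arms lay in its low part: miR-191-5p was below 11 of the 12 and miR-425-5p below 9. miR-484 and miR-26a-5p were close to the threshold, and whether the calls of these reference miRNAs held under other scalings was not checked. With the local background the range was -0.32 to 1.98 and 0 of the 12 were called.

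The miRNAs whose blank-spot values followed the arms most closely over the 6 arrays were found by Pearson correlation among 1454 miRNAs with no missing value. For miR-191-5p they were miR-4484 (0.994), miR-583 (0.966) and miR-126-3p (0.962), and for miR-425-5p they were miR-374c-5p (0.993), miR-5000-5p (0.986) and miR-320a (0.978). A correlation above 0.9 was reached by 34 miRNAs for each of the 5p arms, 22 for miR-191-3p and 28 for miR-425-3p. The points are 6 arrays in 2 groups, and the values are given as a description.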

How the data were processed

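Total RNA of Panc-1 cells was measured on 6 single-colour 3D-Gene miRNA arrays, 3 control and 3 TGF-β. Per the file headers, the deposited scanner files hold linear intensities of each spot and of the local background around it. The authors' processed table also holds intensities. It was rebuilt from the scanner files (trimmed blank mean subtracted, 5% of blank spots left out at each end, detected median of each array set to 25) within rounding, and its method is not given in the sources used here.

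Tools were R 4.3.3, limma 3.58.1 (lmFit, eBayes with trend), Python 3.11.15 and, for figures, matplotlib 3.10.9. The blank-spot background was the mean of the trimmed blank spots, with a floor of 1 before log2, and the local background was normexp with an offset of 50 on all spots. The 3 miRNA spots with a flag were left out, and the 2565 miRNA probes were quantile normalized. Adjustment was over 1457 miRNAs. The fit was tested on simulated arrays of TGF-β against control (1563 to 1570 miRNAs tested, changes of 1 on the log2 scale): 87.3% of the changed miRNAs were found with the blank-spot background, 0% with local background simulated as rising with signal and 66.4% without that rise. Recovery of differences as small as those of the 4 arms with the blank-spot background (-0.34 to -0.21) was not tested. The reason for the absence of calls with the local background on the measured arrays was not tested either. The number of arrays limits the precision.

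The members, lists, rule for named miRNAs (the arms, listed miRNAs and the 3 most similar) and the order of the backgrounds were chosen with earlier results of these data known. The arrays' replicate numbers were checked as pairs over the 1282 miRNAs detected on all arrays. Deviations of same-numbered arrays correlated at 0.129, 0.111 and -0.0274 (blank-spot) and at 0.300, 0.475 and 0.248 (local). All correlations were above 0.1 only with the local background, and only there were the numbers read as pairs. The main fits of both backgrounds were unpaired. Slide position goes with the number. Alternatives were scaling, background, floor, offset, filters, limma without trend, the methods' t-test, the replicate block, the deposited values and each array left out.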

Additional observations from a re-analysis of the deposited data

How the results depend on the processing

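With the blank-spot background all 4 arms stayed below 0 in every alternative run. Median scaling gave -0.11, -0.11, -0.17 and -0.049 for miR-191-5p, miR-191-3p, miR-425-5p and miR-425-3p. The deposited values gave -0.11, -0.11, -0.17 and -0.053. For miR-191-5p, 75th percentile scaling gave -0.21 and no normalization -0.24. For miR-191-3p, no background correction gave -0.10 and normexp on the blank-spot mean -0.051, and for miR-425-3p the latter gave -0.086. With 1 array left out the ranges were -0.37 to -0.29, -0.32 to -0.18, -0.31 to -0.24 and -0.25 to -0.17. With the local background, plain subtraction gave 2.88, 0.12, 3.02 and 1.47, an offset of 0 gave 0.32 for miR-425-3p, and leaving out 1 array gave -0.032 to 2.10, -0.012 to 0.025, 0.74 to 1.99 and 0.075 to 0.14. The cause of these moves was not tested.

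Over all miRNAs with the blank-spot background, limma called 58. No normalization gave 35, no filter on dim probes 19, limma without the trend 32 and the methods' t-test 17, and leaving out 1 array gave 25 to 51 (35 without control replicate 2, 25 without TGF-β replicate 2, 33 without TGF-β replicate 3). miR-191-5p and miR-425-5p were both called under 6 of 11 limma alternatives other than those that left out an array, and neither under the other 5, nor by the methods' t-test; with 1 array left out, both were called in 3 of 6. With the replicate block limma called 60 miRNAs with the blank-spot background, and its standard error for miR-425-3p with the local background was 0.020 compared with 0.044. It changed no call of the 4 arms. With the local background 0 miRNAs were called under every alternative run.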

Other observations

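The same arrays were read for miRNAs commonly described as changed by TGF-β, with lists chosen when earlier results were known. Of these, 2 of 6 miRNAs described as raised had an adjusted p under 0.05 in limma with the blank-spot background, compared with 3.98% of all 1457 miRNAs called in either direction. They were miR-181a-5p (1.19, standard error 0.079, adjusted p = 5.72e-06 from limma) and miR-181b-5p (1.28, standard error 0.086, adjusted p = 5.9e-06), and the median of the list was 0.82 on the log2 scale. miR-21-5p, at 0.033 (standard error 0.041), did not pass the test. Of 6 miRNAs described as lowered (miR-205-5p and the members of the miR-200 family), 2 were detected on every array of a group, and neither passed the test. With the local background none of either list was called.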
